A study of Mus musculus with 12 samples.

Results

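The replication-dependent histone genes of the mouse encode the bulk of the histone proteins that package newly copied DNA. They are short, intronless genes that lie together in clusters named Hist1 to Hist4, and they were chosen here by name and type: every gene whose symbol begins with Hist1h, Hist2h, Hist3h or Hist4h and that is listed as protein coding. There were 58 such genes among the 19954 listed in the table of both sexes, with 5 of the linker histone H1, 15 of H2A, 16 of H2B, 10 of H3 and 12 of H4. The names of 2 more genes had the same form, but these were listed as pseudogenes and left out.

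RNA came from C57BL/6 mouse retina at E15.5 of embryonic development, and each library was made from 12 pooled retinas of more than 1 litter. There were 4 groups of 3 libraries, labelled 4, 5 and 6 in each: wildtype males, wildtype females, and males and females of the genotype Six3-Cre:Tbr2f/f, called mutants here. Tbr2 is the T-box transcription factor gene listed as Eomes, and Six3-Cre drives recombination in the early eye field. Whether the wildtype embryos carried Cre or a floxed allele is not given in the sources used here, and the p-values below describe the spread between pools.

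As background, a typical replication-dependent histone mRNA is made in S phase and ends just after a short stem-loop in place of a poly(A) tail. The stem-loop is bound by SLBP, and with the U7 small nuclear RNA it directs the cut that forms the end of the mRNA. Some of these genes can also make a longer mRNA with a poly(A) tail, including in cells that no longer divide. The retina at this age holds both dividing progenitors and newly formed neurons, and both kinds of marker were high in every library. Summed over 8 progenitor genes, levels were 2517 to 3172 CPM (read counts scaled to the library total), and over 12 genes of postmitotic retinal neurons they were 1426 to 1618 CPM. The labels give total RNA as the extracted molecule, and whether poly(A) RNA was selected is not given in the sources used here.

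The stem-loop and the polyadenylation signal are shown first, because the members differ in which of them lies near the annotated end of their RNA. Sequences are in DNA letters, 5′ to 3′ on the strand of the gene, from GENCODE M21 transcripts on GRCm38 (mm10), with the stem-loop of 16 bases in capitals. The first 2 genes had the highest levels in these libraries, and Hist1h3c is the highest H3 gene.
Hist3h2ba: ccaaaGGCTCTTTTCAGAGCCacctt
Hist1h4i: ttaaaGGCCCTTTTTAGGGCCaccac
Hist1h1c: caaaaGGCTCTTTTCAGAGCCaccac
Hist1h3c: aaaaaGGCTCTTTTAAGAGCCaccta
Hist1h4d: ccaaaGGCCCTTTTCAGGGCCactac
Hist2h2ac: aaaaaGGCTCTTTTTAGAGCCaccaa
These stretches lie at chr11:58949344-58949369 (plus strand) for Hist3h2ba, chr13:22040961-22040986 (minus) for Hist1h4i and chr13:23739507-23739532 (plus) for Hist1h1c. That of Hist1h3c is at chr13:23745042-23745067 (minus), that of Hist1h4d at chr13:23581945-23581970 (plus) and that of Hist2h2ac at chr3:96220413-96220438 (minus). All 6 lie in the exon after the stop codon.

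The search looked for GGNNNNTTNNNNNNCC on the strand of the transcript with all 6 positions of the stem paired, G with T counted as a pair. It matched in 37 of the 56 members whose listed ID has an M21 transcript (66.1%), against 465 of 16150 protein-coding genes listed (2.88%). In 9 of the 56 the model has 0 bases after the stop codon, and in Hist1h2af and Hist1h2ah it has 1 and 2. No stem-loop after the stop codon could be found in these. The listed IDs of Hist1h2al and Hist2h2bb are typed in M21 as a processed pseudogene and a long noncoding RNA. The members without a match are therefore not a count of genes that lack the stem-loop. Among the 37 there were 6 versions of the 16 bases. The commonest, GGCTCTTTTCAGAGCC, was in 21 genes: 3 of H1, 8 of H2A, 6 of H2B and 4 of H3. In H4 genes 3 other versions were found, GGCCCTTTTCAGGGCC in 7, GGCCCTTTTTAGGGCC in 2 and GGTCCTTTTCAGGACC in 1, and these were in 0 genes of the other classes. The version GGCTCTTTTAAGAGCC was in 3 H3 and 2 H2B genes, and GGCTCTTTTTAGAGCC in Hist2h2ac alone.

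Each member was judged here on a single M21 transcript, the longest with a stem-loop match or, without a match, the longest. All genes were counted by any of their transcripts, so the shares of members and of all genes follow unlike rules. The annotated RNA ended within 100 bases of the stem-loop in 18 members (32.1%), against 42 of all 16150 genes (0.26%). A polyadenylation signal, AATAAA or ATTAAA, lay in the last 50 bases of 12 members (21.4%), against 14126 of all genes (87.5%). Of these, 11 had a 3′ end that runs past the stem-loop by more than 100 bases or had no match to it, and they are called genes with a long 3′ end below. Their signal is shown in capitals for the 4 with the highest read counts.
Hist3h2ba: cataatggtattAATAAAtttggttcaatt
Hist1h4i: ggttctgtttacATTAAAagtattctatgc
Hist2h2be: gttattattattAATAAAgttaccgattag
Hist1h1c: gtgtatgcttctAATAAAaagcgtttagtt
They are at chr11:58949495-58949524 for Hist3h2ba, chr13:22040639-22040668 for Hist1h4i, chr3:96223705-96223734 for Hist2h2be and chr13:23740330-23740359 for Hist1h1c. In Hist3h2ba the annotated RNA goes on for 169 bases after the stem-loop, in Hist1h4i for 330 and in Hist1h1c for 840. No stem-loop match was found in Hist2h2be.

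Levels differed widely between the members, from 0.0244 FPKM for Hist1h2ap to 118.5 FPKM for Hist3h2ba, and a few genes held most of the reads. FPKM, fragments scaled to the depth of the library and the listed length of the gene, is the scale for comparing genes. Hist3h2ba, an H2B gene, stood highest at 118.5 ± 14.1 FPKM (SD, n = 12), which was 69.8 times the median of the 58 members (1.70 FPKM). Hist1h4i, an H4 gene, came next at 33.5 ± 6.39 FPKM, and the ranges of these 2 genes over the 12 libraries (92.1 to 143.5, and 21.3 to 43.5) did not overlap. Below them came Hist2h2be at 9.86 ± 1.52, Hist1h2bc at 9.36 ± 2.37, Hist1h2ae at 8.95 ± 2.18, Hist1h3c at 8.86 ± 2.07 and Hist1h1c at 7.07 ± 2.20 FPKM. Each of these 5 differed from the next by less than its SD, and the ranges of all 5 over the 12 libraries overlapped. A mean above 5 FPKM was reached by 9 members, and 15 were below 1 FPKM.

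**Figure D1:**
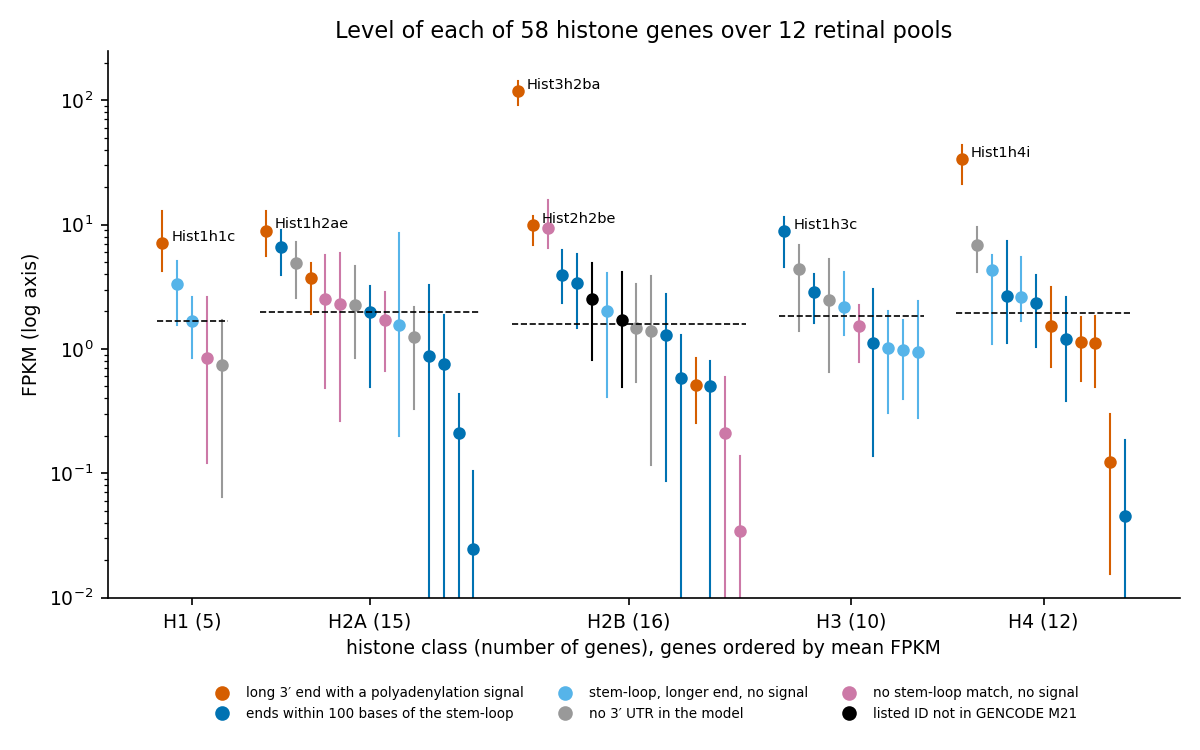
FPKM of the 58 histone genes (log axis), ordered within each class by mean. Points are means over 12 libraries, vertical lines run from the lowest to the highest library (to the bottom edge where a library is at 0), dashes mark class medians and colours the annotated 3′ end; Hist3h2ba at 118.5 and Hist1h4i at 33.5 FPKM stand above the class medians of 1.59 to 1.97.

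Class medians were close to each other, at 1.69 FPKM for H1, 1.97 for H2A, 1.59 for H2B, 1.85 for H3 and 1.95 for H4, while the share of reads was not. In all 12 libraries together H2B genes held 56.3% of the members' counts, H4 genes 17.6%, H2A genes 11.5%, H1 genes 7.65% and H3 genes 6.90%. The 4 genes with the highest CPM, Hist3h2ba, Hist2h2be, Hist1h4i and Hist1h1c, made up 65.3%. All members together were 0.0172% to 0.0250% of a library's counts.

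Among the 5 linker histone genes, Hist1h1c was highest, followed by Hist1h1e at 3.30 ± 1.13, Hist1h1d at 1.69 ± 0.594, Hist1h1a at 0.840 ± 0.666 and Hist1h1b at 0.745 ± 0.490 FPKM. Linker histones bind the DNA between nucleosomes, and every H1 gene passed the filter on low counts, as did every H3 gene. For H2A, whose protein pairs with H2B, Hist1h2ae and Hist1h2ag (6.55 ± 1.60 FPKM) were highest, and Hist2h2ac (0.756 ± 0.490) was the lowest of those tested. In H2B the order below Hist3h2ba was Hist2h2be, then Hist1h2bc, and the lowest tested gene was Hist1h2be at 0.516 ± 0.185 FPKM. The listed length of Hist1h2be is 2433 bases, and its M21 model overlaps that of Hist1h1e on the same strand. H3 forms the core of the nucleosome with H4, and here Hist1h3c was followed by Hist1h3h at 4.38 ± 1.60 FPKM, with Hist1h3d lowest at 0.947 ± 0.527. In H4 Hist1h4i was followed by Hist1h4k at 6.87 ± 1.82, and Hist1h4a was lowest of those tested at 1.11 ± 0.457 FPKM.

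By cluster, the 50 Hist1 genes on chromosome 13 held 45.7% of the counts and had a median of 1.84 FPKM. They lie in a stretch of 22 genes (chr13:21715763-22043676) and a stretch of 27 (chr13:23531050-23764358), with medians of 1.98 and 1.69 FPKM, and Hist1h2al lies apart from both. The 2 Hist3 genes on chromosome 11 held 39.4%, nearly all of it from Hist3h2ba, since its neighbour Hist3h2a stood at 3.68 ± 0.897 FPKM. The 5 Hist2 genes on chromosome 3 held 14.8%, and the single Hist4 gene, Hist4h4 on chromosome 6, 0.171%.

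Levels were also grouped by the annotated 3′ end. The 11 genes with a long 3′ end held 73.9% of the members' counts, at a median of 3.68 FPKM. The 4 genes with the highest CPM are all among them, and the remaining 7 held 8.64%. The 18 genes whose RNA is annotated to end near the stem-loop held 9.11%, at a median of 1.25 FPKM. A stem-loop with a longer end but no signal was found in 10 genes (5.99% of counts, median 1.86 FPKM). The models of 9 genes stop at the coding sequence (4.79%, median 2.25 FPKM), and in 8 neither element was found (5.38%, median 1.62 FPKM). Among these 8 are the models of Hist1h2af and Hist1h2ah, which end almost at the stop codon. Hist1h2al and Hist2h2bb, typed in M21 as a pseudogene and a noncoding RNA, are also among them. The listed IDs of 2 more, Hist1h2bm and Hist1h2bh, are not in M21. The order was not uniform, because Hist1h3c, at 8.86 FPKM, ends near the stem-loop, and Hist1h2be and Hist4h4, at 0.516 and 0.124 FPKM, have long 3′ ends. The annotation is of another release than the counting, and 35 members have the same length in both. For some the model used is longer than the listed gene, as in Hist1h2ae (704 against 460 bases), Hist1h4d (1138 against 393) and Hist1h1d (7425 against 744). The groups therefore describe the longest models and not ends measured in these libraries.

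Many members resemble each other, which limits single-gene values. In 21 members more than 50% of all runs of 100 bases were also found in transcripts of other genes, and in 12 members under 10% were. The share was 4.85% in Hist3h2ba, 0% in Hist2h2be, 15.1% in Hist1h4i and 5.07% in Hist1h1c, the 4 genes with the most reads. It was 94.6% in Hist1h2bq, 92.7% in Hist1h2ao, 92.2% in Hist1h2ap and 88.1% in Hist1h4m, which were among the lowest genes (18, 26, 3 and 5 reads over all libraries). It was also high in genes with more reads, at 92.0% in Hist1h3h (4.38 FPKM), 88.4% in Hist1h2ai (4.91 FPKM) and 76.2% in Hist1h2ag (6.55 FPKM). Reads that fit several genes equally well may have been dropped or split in the counting, and this was not tested. In addition, 17 members overlap the M21 model of another gene, and reads from opposite strands cannot be told apart where the strand setting is unknown.

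Around the start site, the members shared sequence elements that the selection by name had not used. RefSeq promoters of 300 bases (250 before the start to 50 after, build GRCm38.p6) were matched for 51 members. CCAAT, on either strand, was in 43 of them (84.3%), against 41.1% of all 27025 genes in the promoter table. All 40 matched H1, H2A, H2B and H3 promoters held it, and the 8 without it were all H4 genes (Hist1h4f, Hist1h4h, Hist1h4i, Hist1h4j, Hist1h4k, Hist1h4m, Hist1h4n and Hist4h4). Several H2A and H2B windows overlap on the same DNA, such as those of Hist1h2ad and Hist1h2bf. A site there counts for both genes, so these promoters are not separate observations. TATAAA, on either strand, was in 31 (60.8%) against 15.7% of all. Counted on the strand of the gene and from base -40 to -20 alone, it was in 10 (19.6%) against 2.41%. The counts on either strand include matches after the start, such as the only CCAAT of Hist2h3c2, at base 15. The promoters of the 2 genes with the highest FPKM are shown because they differ in CCAAT, with CCAAT (or its reverse complement, ATTGG) and TATAAA on the gene's strand in capitals.
Hist3h2ba: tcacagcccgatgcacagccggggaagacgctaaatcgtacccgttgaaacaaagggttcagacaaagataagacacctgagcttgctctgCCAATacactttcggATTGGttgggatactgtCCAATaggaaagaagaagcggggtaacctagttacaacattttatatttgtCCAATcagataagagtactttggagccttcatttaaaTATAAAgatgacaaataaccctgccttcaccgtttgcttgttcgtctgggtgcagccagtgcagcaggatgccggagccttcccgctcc
Hist1h4i: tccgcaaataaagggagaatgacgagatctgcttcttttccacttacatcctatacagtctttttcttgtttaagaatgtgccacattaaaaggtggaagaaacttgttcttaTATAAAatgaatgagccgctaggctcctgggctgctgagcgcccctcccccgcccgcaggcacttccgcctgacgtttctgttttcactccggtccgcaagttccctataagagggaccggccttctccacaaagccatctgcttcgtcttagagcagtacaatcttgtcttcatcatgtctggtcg
The first is chr11:58948661-58948960 (plus strand) and the second chr13:22041313-22041612 (minus strand). In Hist3h2ba the CCAAT matches begin at -159, -144, -127 and -76 and TATAAA on the gene's strand at -39, while the TATAAA of Hist1h4i begins at -137. A match is a description of the letters and no evidence of a bound factor.

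The libraries themselves differed in ways that touch these levels. Totals were 18514607 to 27072825 counts. The mitochondrial RNA mt-Nd6, 1 of 11 RNAs without a poly(A) tail looked for and the only one in the table, separated 5 libraries (number 4 of wildtype females and of both mutant groups, wildtype male 5 and wildtype female 6), where it reached 373 to 484 CPM, from the remaining 7, where it reached 9.70 to 48.4 CPM. The 9 mitochondrial mRNAs with a poly(A) tail separated the same libraries, at 12920 to 15580 CPM in the 5 and 3720 to 10950 CPM in the 7. The split was therefore not particular to RNA without a poly(A) tail. Mutant male 6 stood apart on the first principal component, at 71.3 where the others lay between -24.7 and 14.7. It was also lowest for 9 mitochondrial mRNAs with a poly(A) tail (3720 CPM against up to 15580), for 10 mitosis genes (1606 against up to 2430 CPM) and for 13 histone chaperones (1746 against up to 2404 CPM). Eomes, the targeted gene, was at 53.45 to 76.1 CPM in wildtype and 9.62 to 27.4 CPM in mutant libraries, with no overlap.

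All 58 members summed to 200.1, 178.7 and 222.0 CPM for wildtype males 4, 5 and 6, against 197.2, 226.4 and 249.9 CPM for mutant males. It was 190.5, 213.7 and 203.7 CPM in wildtype females and 171.9, 196.6 and 215.4 CPM in mutant females. The ranges of wildtype and mutant overlapped in both sexes, and the highest sum was that of mutant male 6. Means were 201.5 ± 15.6 CPM for wildtype and 209.6 ± 27.15 CPM for mutant pools (SD, n = 6 each), a difference smaller than either spread. In bulk tissue, fewer cells in S phase and less histone RNA per cell cannot be told apart.

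**Figure D2:**
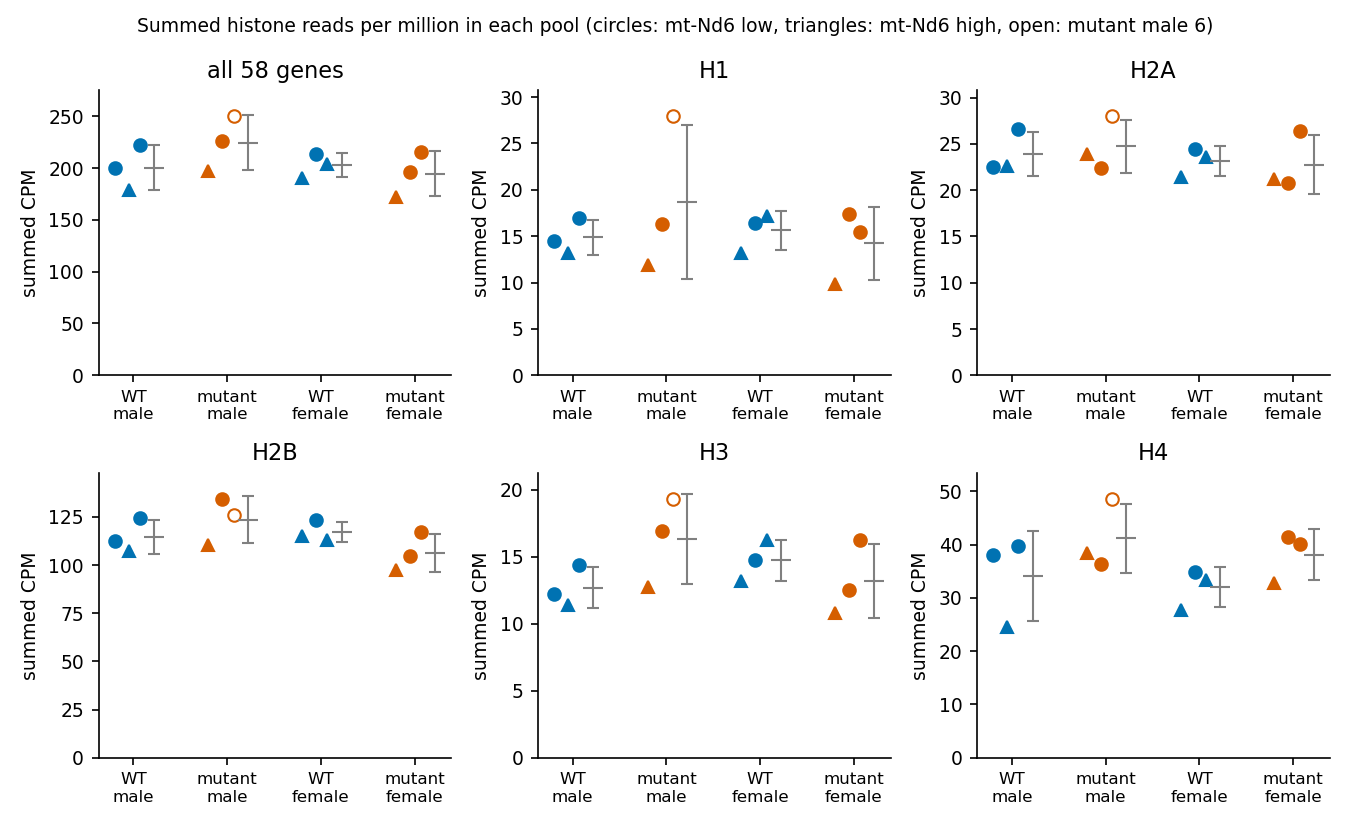
Summed CPM of the histone genes in each library, for all 58 and by class; every axis starts at 0. Each point is 1 library (blue: wildtype; orange: mutant; triangles: mt-Nd6 above 100 CPM; open circle: mutant male 6) and bars are the mean ± SD of the 3 libraries of a group; wildtype and mutant overlap in every panel, and mutant male 6 is highest for H1 at 27.9 CPM.

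The sums also moved with mt-Nd6. In the 5 libraries high in mt-Nd6 the members summed to 171.9 to 203.7 CPM, and in the other 7 to 196.6 to 249.9 CPM, so the 2 ranges overlapped only at their edges. Each genotype and sex had libraries of both kinds. Within the high set the wildtype libraries had 178.7, 190.5 and 203.7 CPM and the mutant ones 197.2 and 171.9 CPM. Within the low set they had 200.1, 222.0 and 213.7 CPM against 226.4, 249.9, 196.6 and 215.4 CPM. Outside the Hist clusters, 11 histone variant genes summed to 4484 to 4607 CPM in the high set and 4545 to 5147 CPM in the low set. The part of mt-Nd6, or of what sets it, in the histone levels was not tested.

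By class, H1 genes summed to 9.85 to 27.9 CPM, and the highest value was that of mutant male 6, with 17.3 CPM as the highest of the other 11. The coefficient of variation (CV, SD over mean) of the H1 sum was 28.2% over 12 libraries and 16.7% without mutant male 6. The H2B sum varied least, at 115.4 ± 10.3 CPM (CV 8.93%), followed by that of H2A at 23.7 ± 2.32 CPM (9.82%). The H4 sum was at 36.3 ± 6.39 CPM (17.6%) and that of H3 at 14.2 ± 2.56 CPM (17.9%). Most of the H2B sum came from Hist3h2ba (72.75 CPM) and Hist2h2be (25.85 CPM). Single genes had another order, with a median CV of 52.8% for H2A and 45.7% for H2B. It was 40.7% for H4, 38.8% for H3 and 35.2% for H1. H4 genes summed to 33.05 ± 5.92 CPM over wildtype and 39.6 ± 5.35 CPM over mutant pools (6 each), from 24.5 to 39.7 and from 32.7 to 48.6, and these ranges overlapped. Genes annotated to end near the stem-loop summed to 17.0 ± 3.25 CPM in wildtype and 20.8 ± 3.55 CPM in mutants, also with overlap, and genes with a long 3′ end to 151.3 ± 11.7 and 152.0 ± 16.8 CPM. Split by mt-Nd6 instead, H4 genes summed to 31.35 ± 5.40 CPM over the 5 high and 39.9 ± 4.44 CPM over the 7 low libraries, and genes ending near the stem-loop to 16.2 ± 3.41 and 20.9 ± 2.90 CPM.

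The first comparison set all mutant against all wildtype libraries, with sex as a term, to see whether loss of Tbr2 went with a difference in histone genes. Of the 58 members, 50 passed the filter on low counts and were tested among 15467 genes. Past a Benjamini-Hochberg adjusted p of 0.05 by edgeR's quasi-likelihood test were 0 members, where 0.0259% of all genes tested were, and the lowest adjusted p of a member was 0.918. DESeq2 and limma voom also called 0. At an unadjusted p under 0.05 there were 5 members by edgeR (10%, against 2.92% of all genes tested), 7 by DESeq2 and 3 by limma voom. The log2 fold changes were above 0 in 27 and below 0 in 23 members, with a median of 0.07, against -0.01 for all genes tested. This median was -0.06 without mutant male 6. Fitted on the 5 mt-Nd6-high libraries alone it was -0.17 over 53 members, and on the 7 low ones 0.28 over 52. In the authors' deposited table the lowest adjusted p of a member was 0.744, that of Hist1h2bk.

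Hist3h2ba, the best measured member, was at 74.8, 69.4 and 81.85 CPM in wildtype males 4, 5 and 6 and at 70.0, 88.1 and 81.2 CPM in mutant males. It was at 66.8, 79.7 and 66.4 CPM in wildtype females and 56.55, 67.6 and 70.6 CPM in mutant females. Genotypes overlapped in both sexes, and the log2 fold change was -0.03 (SE 0.08). Hist1h4i overlapped in males, where wildtype pools had 26.2, 15.51 and 27.2 CPM while mutant pools had 26.9, 24.5 and 31.6 CPM. For females the wildtype pools had 17.55, 23.2 and 20.4 CPM and the mutant ones 23.7, 28.5 and 27.2 CPM, with no overlap. Its log2 fold change over both sexes was 0.32 (SE 0.12, unadjusted p = 0.0231, edgeR adjusted p = 0.918). Hist2h2be, at 27.6 ± 2.92 CPM over the 6 wildtype pools and 24.1 ± 4.38 CPM over the 6 mutant pools, had a log2 fold change of -0.20 (SE 0.12).

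The other 4 members with an unadjusted p under 0.05 were all higher in mutants, and none passed after adjustment. Hist1h2bc, an H2B gene, had 6.08, 4.81 and 6.21 CPM among wildtype males, with 6.34, 7.19 and 11.6 CPM among mutant males. Wildtype females had 6.69, 5.64 and 5.44 CPM, and mutant females 7.85, 7.65 and 7.14 CPM. Mutant libraries lay above wildtype ones within each sex, while across the sexes mutant male 4 lay below wildtype female 4. Its log2 fold change was 0.45 (SE 0.15, edgeR adjusted p = 0.918), and that of Hist1h2bk, also H2B, was 0.77 (SE 0.25, edgeR adjusted p = 0.918). Hist1h2bk counts were 17 to 39 reads per wildtype library and 23 to 57 per mutant library, and 70.8% of its runs of 100 bases occur in other genes. The H4 genes Hist1h4n and Hist1h4f stood at 0.78 (SE 0.33) and 0.90 (SE 0.38), with 13 to 29 and 3 to 11 reads per wildtype library and 18 to 59 and 5 to 19 per mutant library. Without mutant male 6 they stood at 0.47 and 0.73.

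**Figure D3:**
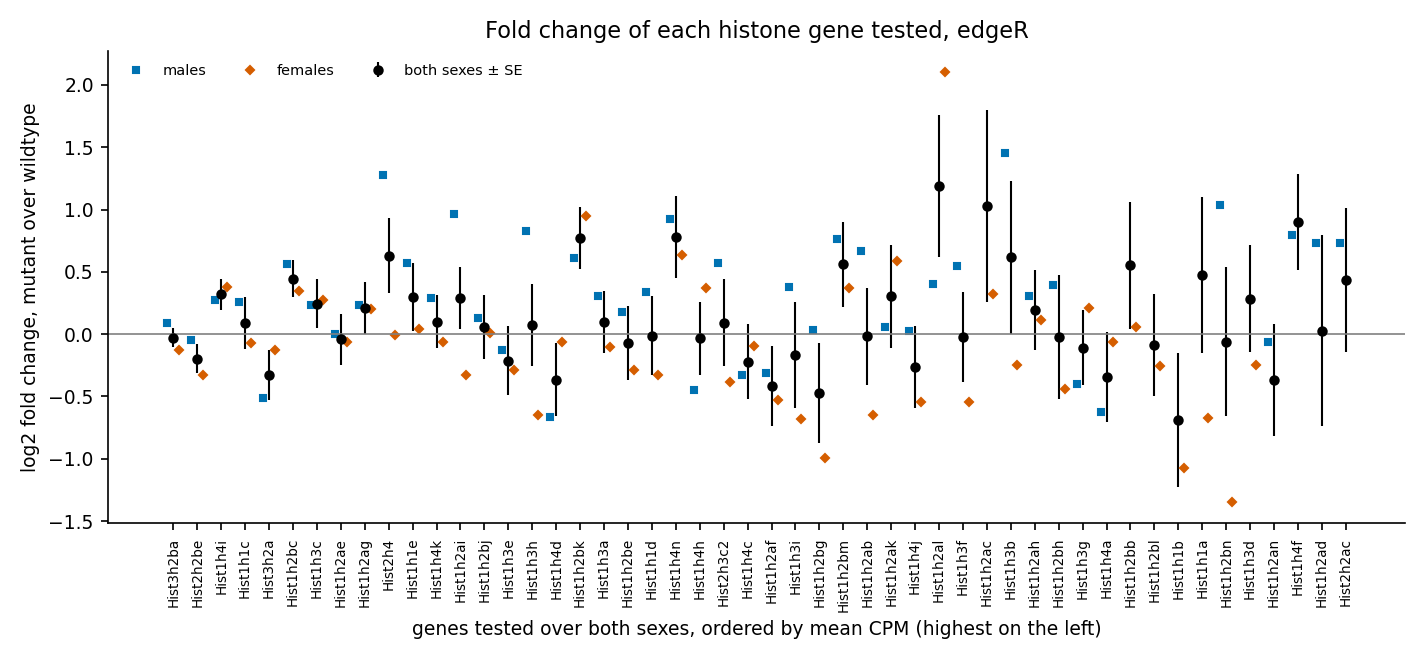
Log2 fold change of mutant over wildtype for the 50 histone genes tested, ordered by mean CPM from left to right. Black points with bars are the edgeR fit of both sexes ± SE, blue squares males and orange diamonds females (tested alone, where the gene passed that filter); the black points run from -0.33 to 0.45 for the 6 genes with at least 100 reads per library and from -0.69 to 1.19 for the 29 with fewer than 25.

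The largest log2 fold changes belonged to genes with few reads. Hist1h2al was at 1.19 (SE 0.57) with 2 to 52 reads per library, Hist1h2ac at 1.028 (SE 0.77) and Hist1h4f at 0.90. The RNA of Hist1h2al is typed as a processed pseudogene in M21. Hist1h2ac had 75 reads in mutant male 6 and 2 to 23 in the other 11 libraries, and without mutant male 6 its log2 fold change was -0.28. The lowest were Hist1h1b at -0.69 (SE 0.54), Hist1h2bg at -0.47 (SE 0.40) and Hist1h2af at -0.42 (SE 0.32). For linker histones the remaining values were 0.09 for Hist1h1c (SE 0.21), 0.30 for Hist1h1e (SE 0.27), 0.47 for Hist1h1a (SE 0.63) and -0.01 for Hist1h1d (SE 0.32). By class the median was 0.09 for H1, 0.20 for H2A, -0.03 for H2B, 0.08 for H3 and 0.03 for H4. Of the 13 tested genes annotated to end near the stem-loop 11 were above 0 (median 0.24), and of the 10 with a long 3′ end 3 were (median -0.06).

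Standard errors were larger for members with fewer reads. For the 6 members with a mean of at least 100 reads per library the SE of the log2 fold change was 0.08 to 0.21, for the 15 with 25 to under 100 reads it was 0.20 to 0.33, and for the 29 with fewer it was 0.29 to 0.77. Differences within these errors were not detectable at this depth.

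In males alone 44 members were tested and 0 passed, where 0% of the 14945 genes did, with 2 members at an unadjusted p under 0.05 (4.54%, against 1.41% of all genes; DESeq2 and limma voom called 0). The fold changes leaned upward, with 34 members above 0 and 10 below and a median log2 fold change of 0.30, against 0.01 for all genes. Without mutant male 6 this median was 0.16. Hist2h4, an H4 gene, had the lowest p: it had 1.25, 1.17 and 2.48 CPM among wildtype males against 3.19, 3.52 and 5.13 CPM among mutant males, with no overlap (log2 fold change 1.28, edgeR adjusted p = 0.994). Hist1h2ai, an H2A gene, was at 1.09, 1.02 and 1.43 CPM against 2.14, 2.33 and 2.43 CPM. Among the 50 members tested over both sexes, 4 had every mutant male above every wildtype male (2.47% of all genes), and 0 had the reverse (3.04%). The 4 were Hist1h2ai, Hist1h2bc, Hist1h4f and Hist2h4.

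In females alone 46 members were tested and 0 passed, where 0.00669% of the 14956 genes did, with 4 members at an unadjusted p under 0.05 (8.70%, against 2.63% of all genes; DESeq2 and limma voom called 0). Here 16 members were above 0 and 30 below, with a median of -0.10 against -0.01 for all genes. Without mutant female 4 the median was 0.08. These fits do not pair libraries by number. With the library number as a term the median was -0.135, with 4 members at an unadjusted p under 0.05 by edgeR and 0 past the threshold. Hist1h4i had the lowest p, with a log2 fold change of 0.38 (edgeR adjusted p = 0.986). Every mutant female lay above every wildtype female for Hist1h2bc, Hist1h2bk and Hist1h4i (3 of 50 members, 4.21% of all genes). The reverse held for Hist1h2ab and Hist1h3h (2 of 50, 3.89% of all genes). Over both sexes, 0 members had all 6 mutant libraries above (0.0776% of all genes) or below (0.129%) all 6 wildtype libraries.

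The interaction asked whether the genotype difference was the same in both sexes, and 0 of 50 members passed by edgeR, where 0% of genes did. DESeq2 and limma voom called 0 as well. The difference in females minus that in males was below 0 in 38 members and above 0 in 12, with a median log2 value of -0.37 against -0.01 for all genes. Without mutant male 6 the median was -0.17, with 29 below and 21 above 0. At an unadjusted p under 0.05 there were 5 members (10%, against 1.73% of all genes), the lowest being Hist1h2ai at -1.29 (edgeR unadjusted p = 0.00322, adjusted p = 1.0). By class the median was -0.66 for H1, -0.21 for H2A, -0.37 for H2B, -0.99 for H3 and 0.17 for H4. These class medians come from the fit that includes mutant male 6.

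Between wildtype females and wildtype males 0 of 50 members passed by edgeR, where 0.00647% of genes did, and DESeq2 and limma voom called 0. The median was 0.13 against 0.01 for all genes, with 31 members higher in females and 19 lower, and 3 had an unadjusted p under 0.05 (6%, against 1.49% of all genes). Hist1h2ai again had the lowest p, at 1.02 on the log2 scale (edgeR unadjusted p = 0.00165, adjusted p = 1.0). Its wildtype females were at 1.66, 2.59 and 2.85 CPM and its wildtype males at 1.09, 1.02 and 1.43 CPM. These male libraries also enter the comparison in males and the interaction, so the 3 values of this gene are not separate results.

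The spread between pools is given as the CV over all 12 libraries, which also holds differences of genotype and sex. The median CV of CPM over 12 libraries was 40.1% for the 50 members tested, against 14.1% for all genes tested, and counting error at the members' depth would give a median of 21.3%. The ratio of observed to counting CV ranged from 1.13 to 5.70 with a median of 2.22, and exceeded 2 in 28 members. Hist3h2ba had the smallest CV, 11.9% (counting error 2.52%), followed by Hist2h2be at 15.4% (4.21%) and Hist1h4i at 19.1% (4.37%). The largest CVs were 146.3% for Hist1h2ac, 100% for Hist1h2ad and 80.1% for Hist1h2al. For Hist1h2ac and Hist1h2ad the highest library was mutant male 6, and for Hist1h2al it was mutant female 5, at 2.22 CPM.

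**Figure D4:**
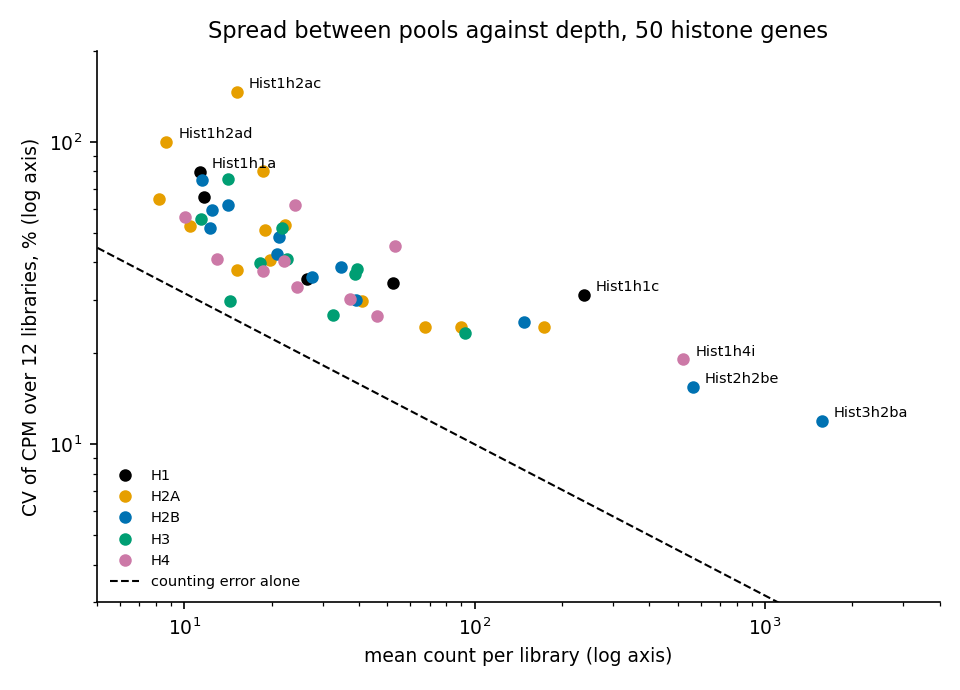
CV of CPM over 12 libraries against the mean count per library for the 50 histone genes tested, both on log axes, coloured by class. The dashed line is the CV that counting error alone would give; every gene lies above it, from Hist3h2ba at 11.9% on the right to Hist1h2ac at 146.3% on the left.

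Genes of the same abundance give another reference. The biological coefficient of variation is edgeR's estimate of the spread between libraries beyond counting, here from the fit with sex and genotype as terms. It therefore also holds any interaction of sex and genotype. Its median was 0.334 over the 50 members. The abundance trend fitted through all genes had a median of 0.348 at the members' levels. The estimate lay above the trend in 29 of 50 members (58%), against 26.4% of all genes tested. Hist3h2ba, at 0.11, was below its trend of 0.14, as was Hist1h2bc, at 0.18 against 0.23. Hist1h1c, at 0.25 against 0.20, was above it, and Hist1h2ac was farthest above at 0.84 against 0.36.

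The other 8 of the 58 members did not pass the filter on low counts and have no test. They were Hist1h2bf, Hist1h2bp, Hist1h2bq and Hist2h2bb of H2B, Hist1h2ao and Hist1h2ap of H2A, and Hist1h4m and Hist4h4 of H4, with 3 to 91 reads over all 12 libraries. A count of 0 was found in at least 1 library for 9 members, which at these totals allows a level of up to 0.111 to 0.162 CPM, for counting error only.

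Genes that act with the members were taken from lists. Of 17 genes for transcription of histone genes and processing of their mRNA, among them Slbp, 5 were above and 12 below 0 with a median log2 fold change of -0.03, and 0 passed in any of the 5 comparisons by edgeR. Of 13 chaperones, 23 S phase genes and 10 mitosis genes, medians were 0.01, -0.03 and -0.02, and 0 passed. The 11 genes listed as histone variants, which lie outside the Hist clusters, also had 0 past the threshold, with 10 above and 1 below 0. Their mean levels were 1076 CPM for H3f3b, 823.5 for H1f0, 702 for H2afz, 554 for H2afx, 434 for H2afy, 305 for H3f3a, 271 for H2afv, 207 for H2afy2, 150.2 for H1fx, 105.5 for Cenpa and 60.7 for H2afj. The CV of H2afz over the 12 libraries was 4.74% and that of H1fx 20.7%.

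Other cell types could add histone reads of their own. Summed levels were 24.9 to 42.0 CPM for 6 pigment epithelium genes, 227 to 263 CPM for 7 genes of vessels and mesenchyme, 42.0 to 60.9 CPM for 6 microglia genes and 291 to 650 CPM for 9 blood genes. The 9 lens genes varied most: their sum was lowest, at 5.56 CPM, for mutant male 6 and highest, at 1927 CPM, for mutant female 5. All 9 were above 0 with a median log2 fold change of 1.54, while medians were -0.14 for blood, -0.01 for pigment epithelium, 0.01 for vessels and mesenchyme and 0.13 for microglia. Progenitor and neuron genes had medians of 0.07 and -0.04, mt-Nd6 was at -0.36, and the 9 mitochondrial mRNAs were all below 0 with a median of -0.28. By edgeR 0 genes of these lists passed in any comparison, and Eomes, at -1.76 (SE 0.15), passed over both sexes (edgeR adjusted p = 0.000484). In females Eomes passed as well, at -2.08 (edgeR adjusted p = 0.0271), while in males, at -1.43, it did not (edgeR adjusted p = 0.295). Mutant male 6, highest in summed histone genes, was thus lowest in lens genes and highest in microglia and progenitor genes. The part of other cells in the histone levels was not tested.

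The genes whose log2 CPM ran closest to the log2 of the members' sum over the 12 libraries, among 10163 other genes of at least 10 CPM, were Pef1 (Pearson r = 0.967), Stub1 (0.965) and Nelfb (0.960). Napa, Prr13, Zfp598, Adck2, Abcb8, Adrm1 and Acadvl followed at 0.949 to 0.954. These values describe 12 libraries that share depth and composition, and were picked as the highest of 10163.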

How the data were processed

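Bulk RNA-seq of 12 libraries was used. Per the submitters' processing notes, reads were aligned to mm10 with STAR 2.5, counted with HTSeq 0.6.1 and compared with DESeq2, and CASAVA called the bases. Of the annotation release, the strand setting and reads with several hits nothing is stated. The authors deposited whole-number counts, FPKM, log2 fold changes and p-values, per the file headers. The deposited counts entered every test, the FPKM the levels, and the fold changes and p-values only the sentence that names the authors' table. Member counts were the same in the tables of males and females, where 57 and 58 of the 58 members were listed.

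CPM is counts over the library total. Tests used edgeR 4.0.16 in R 4.3.3 (TMM scaling, filterByExpr on the groups, quasi-likelihood test, two-sided, Benjamini-Hochberg, 0.05), with DESeq2 1.42.0 and limma 3.58.1 voom as alternatives. An SE is the fitted log2 change divided by the root of F. Scripts were tested on simulated counts. Over both sexes genotype and sex were terms. Other alternatives were no TMM, no filter, a replicate block, a term for mt-Nd6 above 100 CPM, and each library left out. Same-numbered libraries had deviations correlated at -0.205, 0.008 and 0.292 in males and 0.210, 0.213 and 0.138 in females, so the numbers were taken to pair the females alone. The main fit of females did not use this pairing, which entered only through the replicate block as an alternative.

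The members, the gene lists and the tests were chosen with earlier results of these data known. Named are the 2 highest and the lowest tested member of each class by FPKM, all H1 genes, the 3 extremes of fold change and of CV, members with a low p, those not tested, and the genes most like the sum. Members with an unadjusted p under 0.05, without overlap or named for cluster, 3′ end or sequence were added after their values were seen. Lists of processing factors, chaperones, S phase, mitosis, variants, RNAs with and without a poly(A) tail, retinal and other cells, and Eomes were read by count and sum. Sequences came from GENCODE M21 and, for promoters, RefSeq. Python 3 did the rest.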

Additional observations from a re-analysis of the deposited data

Results flagged for a closer look

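Each of 26 named members, the sum of all members and 9 sums by class or cluster was looked at in the 6 wildtype and the 6 mutant libraries for 1 library far from the other 5, by the gap to its neighbour over the range. This gave 72 looks, 8 of them above the critical value of 0.625. That value is set for about 1 in 20 by chance, a rate that does not hold for these looks. Some members were named for an extreme fold change or CV in these same data, and the sums hold the members. In 7 of the 8 the library apart was mutant male 6, which was highest. It had 4.05 CPM of Hist1h2ac where the other mutant libraries had 0.0953 to 0.777, and 1.51 CPM of Hist1h2ad where they had 0 to 0.414. It had 1.67 CPM of Hist1h1a (others 0.222 to 0.631), 1.35 CPM of Hist1h3d (0.222 to 0.631) and 3.19 CPM of Hist1h4n (0.843 to 1.496). It also had 11.6 CPM of Hist1h2bc (6.34 to 7.85) and 0.864 CPM of the Hist4 cluster, that is of Hist4h4 (0.0443 to 0.243). These genes share the library and are not separate observations. The eighth was Hist1h3d in wildtype male 4, at 0.156 CPM where the other wildtype libraries had 0.462 to 0.591. Of the 50 members tested, 0 moved in opposite directions in the sexes without overlap, where 37 of the 15467 genes tested over both sexes did. At so low a share, 0 of 50 says nothing particular about the members.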

How the results depend on the processing

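The count of 0 histone genes past the threshold was 0 under all 20 alternatives over both sexes, 12 each in males and in females, 18 for the interaction and 18 between wildtype sexes. This included the replicate block, where it was 0 in each of the 5 comparisons and changed no call. Members at an unadjusted p under 0.05 over both sexes were 3 to 7. The summed level, 205.5 CPM, was the same within its SD with TMM scaling. The median CV of 40.1% did not move by over 1.5 times with TMM or without any library. Directions of uncalled values were less stable. The median over both sexes, 0.07, turned to -0.0599 without mutant male 6 (range over libraries left out -0.0599 to 0.16) to -0.17 in the libraries high in mt-Nd6 and to 0.28 in the low ones. In females the median of -0.10 ranged from -0.32 to 0.0767, turning without mutant female 4. With libraries left out, it ranged in males from 0.16 to 0.49 for the interaction from -0.54 to -0.17 and between wildtype sexes from 0.02 to 0.20 (0.21 with a term for the library set). Likewise Hist3h2ba ranged from -0.0694 to 0.0158, Hist1h1c from -0.13 to 0.19, Hist1h1d from -0.17 to 0.18, Hist1h1a from -0.13 to 0.78 and Hist1h2ac from -0.28 to 1.47. In the libraries high in mt-Nd6 alone, Hist1h1a turned to -0.33, Hist1h1c to -0.47, Hist1h1d to 0.0114, Hist1h1e to -0.19 and Hist1h2ac to -1.20. Hist1h1c turned to -0.0103 with a term for the library set, and Hist1h1d to 0.11 with limma voom. The cause of these turns was not tested. Most members had under 25 reads per library, which limits what could be called.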
